A study of Drosophila melanogaster with 20 samples.

Results

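The difference that a high sugar diet made to gene expression in the fat body was set against the difference it made in the brain of the same strain of fly. The design crossed 2 tissues with 2 diets: brain and fat body came from wild-type Oregon-R females of Drosophila melanogaster, 5 days old, kept for 5 days on normal food (ND in the labels) or on food rich in sugar (HSD), and each of the 4 groups held 5 poly(A) RNA sequencing libraries. All 4 groups shared strain, sex and age, and the labels listed 5 days of feeding for the normal food groups too. The quantity studied was the interaction, the HSD minus ND difference in the fat body minus the HSD minus ND difference in the brain, on the log2(RPKM + 1) scale, where RPKM is the number of reads on a gene per kilobase of its length, scaled to the library's reads. It used all 20 of the 20 libraries and every gene with a mean of at least 1 RPKM over them, 9280 of 13972 genes whose symbol named a single entry. A positive interaction means that high sugar moved a gene further up, or less far down, in the fat body than in the brain.

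The fat body does in insects what liver and adipose tissue do in mammals: it stores glycogen and triglyceride, releases trehalose and lipid into the hemolymph, makes yolk and storage proteins, and secretes hormones and antimicrobial peptides. The brain draws its sugar from the hemolymph and holds the insulin-producing cells, whose peptides act on the fat body. In flies, insulin and the kinase TOR raise ribosome production when food is plentiful, the Mondo and Mlx transcription factors respond to sugar inside the cell, and adipokinetic hormone mobilises the stores.

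The read totals behind the RPKM values, recovered from the values themselves, ranged (in reads × 10⁶) from 21.7 to 46.3 in brain libraries and from 5.6 to 40.4 in fat body libraries. By counting error alone, 3 reads on a gene of 1 kb were worth 0.065 to 0.138 RPKM in brain libraries and 0.074 to 0.536 in those of the fat body. Marker sums separated the tissues. The summed RPKM of 5 neuron genes was 1246 to 1777 in brain libraries and 1.38 to 8.08 in fat body libraries. That of 7 fat body genes, mostly Yp1 and Yp2, was 29993 to 124013 in the fat body and 257 to 7022 in the brain. Of these, Yp1, Yp2, Rfabg, Npc2h and GRHR were each higher in every fat body library than in any brain library. The other members were not: Fbp1 was at most 0.933 RPKM in any library. Lsp2 reached 463 in the brain and stood at 0.078 to 20.9 in fat body HSD libraries. Replicates spread more in the fat body, with a median SD of 0.43 (log2) per gene against 0.14 in the brain, and 84.0% of genes had the larger SD there. Libraries ND 4, ND 5 and HSD 4 of the fat body held 5606, 4358 and 5445 genes at 0 against 2836 to 3387 in the other fat body libraries. They held 321, 95 and 400 genes at 1 to 3 reads, against 1065 to 1220 in the others. The value of 0.074 above is that of ND 5, the fat body library with the most reads. In the brain, libraries 4 and 5 of both diets held 1644 to 1758 genes at 0, and libraries 1 to 3 held 1948 to 2377. Nothing in the labels says that libraries of a group came from separate cultures, so a p-value here speaks of the spread among these libraries, part of which may be technical. In bulk tissue, fewer cells of a type and less RNA per cell cannot be told apart.

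No gene passed the test of the interaction at an adjusted p of 0.05 (limma, Benjamini-Hochberg over 9280 genes, 0 called, 0%). The smallest adjusted p was 0.772. At an unadjusted p under 0.05, 598 genes were listed (6.44%), of which 535 had a fat body difference above the brain's (5.77% of genes) and 63 below it (0.679%). With limma-voom on reads recovered from the RPKM values, 0 genes passed, and 509 and 60 had an unadjusted p under 0.05. The median SE of an interaction was 0.30 and the median absolute interaction was 0.22, so the typical gene's value was smaller than its own error.

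The direction of the whole distribution depended on the scaling of the libraries. As deposited, the median interaction was 0.16 and 6966 genes (75.1%) lay above 0. When the libraries of each tissue were rescaled by their median ratio, the median was 0.004, 4697 genes (50.6%) lay above 0, and the listed genes were split 119 above (1.28%) and 131 below (1.41%), of which 180 were among the 598. Rescaled values are therefore given below for many lists and some genes, and a list is to be read against the median of 0.16 as deposited or 0.004 rescaled. Genes given without a rescaled value moved too. Of those named below, yps went from 0.83 to 0.61 and CG9510 from -1.29 to -1.51.

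**Figure D1:**
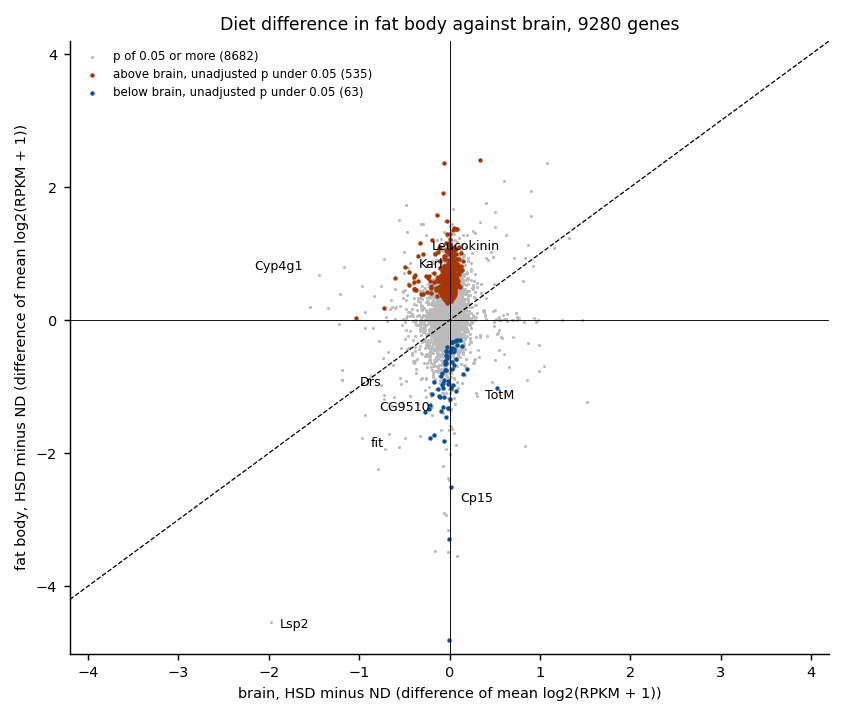
HSD minus ND difference in the brain (x axis) and in the fat body (y axis), both in log2(RPKM + 1), for 9280 genes. Points on the dashed line have the same difference in both tissues. Genes with an unadjusted interaction p under 0.05 (535 above the line in brown, 63 below it in blue) form a vertical band, with fat body differences far from 0 and brain differences near 0.

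The diet differences were larger in the fat body than in the brain for most genes listed. Between the lower and upper quartiles, genes had diet differences between 0.011 and 0.35 in the fat body (median 0.17) and between -0.030 and 0.050 in the brain (median 0.015). A difference of more than 0.5 in either direction was found for 1359 genes in the fat body and 115 in the brain. Of the 598 listed genes, 596 had the larger absolute difference in the fat body, with medians of 0.57 in the fat body and 0.040 in the brain. These counts cannot tell a larger response from a larger spread between replicates. The median SD per gene was 0.43 in the fat body and 0.14 in the brain, and the listing used one shared spread. Across genes, the differences of both tissues had a Pearson correlation of 0.168 and a Spearman correlation of 0.136 over 9280 genes, which share their libraries and are not independent replicates, and 39.4% of genes had opposite signs.

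Within a single tissue, 45 genes passed an adjusted p of 0.05 in the fat body (33 higher on high sugar and 12 lower, 0.485%) and 0 in the brain (0%, 8 at an unadjusted p under 0.05), in the same limma fit with Benjamini-Hochberg adjustment. With quantile normalization within each tissue the split turned, to 13 higher and 18 lower of 31, and after median-ratio rescaling 3 passed (2 higher and 1 lower). That fit shares one estimate of the spread between tissues that differ in spread. With the spread of each tissue estimated apart, 0 genes passed in either tissue and for the interaction, and with same-numbered libraries as pairs 0 passed in the fat body. In the fat body, all 5 HSD libraries lay above all 5 ND libraries for 143 genes (1.54%) and below for 23 (0.248%), and in the brain for 14 (0.151%) and 1 (0.0108%).

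Libraries 1 to 3 and libraries 4 and 5 gave different pictures. Within libraries 1 to 3 of each group, 277 genes passed an adjusted p of 0.05 for the interaction in limma (219 above and 58 below) and the median was 0.29. Within libraries 4 and 5, 0 passed (141 at an unadjusted p under 0.05) and the median was 0.003. This fit held only 2 libraries per group, among them fat body ND 4, ND 5 and HSD 4 with many genes at 0. Its errors were larger: the SE of Dref, named below, was 0.30 there and 0.11 within libraries 1 to 3. It therefore cannot show that an interaction was absent in these libraries. Over 9096 genes in both fits, the sign of the interaction was the same for 49.8%. Without fat body ND 4, ND 5 and HSD 4, 23 genes passed (19 above and 4 below). With a weight estimated for each library, from 0.073 for fat body ND 4 to 10.43 for brain HSD 1, 2104 genes passed (1956 above and 148 below). The weights of fat body ND libraries 1 to 5 were 1.15, 4.82, 0.14, 0.073 and 0.22, so the weighted mean of that group rested mostly on libraries 1 and 2.

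Most of the 9280 genes tested were found in both tissues, and so were most of the listed ones. Of 7469 genes with a mean of at least 1 RPKM in each tissue, 553 were listed (7.4%, near the 6.44% of all genes). Of 1220 genes at that level only in the brain 13 were listed (1.07%), all with the fat body difference above, and of 591 at that level only in the fat body 32 were (5.41%, 20 above and 12 below). The 1220 genes had fat body means under 1 RPKM, where log2(RPKM + 1) leaves little room to fall, so their direction and low share are partly set by the scale.

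Above the brain, the genes with the smallest p included the following. Each of the 11 named in this and the next paragraphs had an adjusted interaction p of 0.772 in limma, and each passed in the fat body alone in the fit with shared spread. Dref, a transcription factor of replication and growth genes, stood in the fat body at 36, 38.3, 41.3, 41.6 and 39.1 RPKM in ND libraries 1 to 5 and at 57.5, 59.9, 58.4, 61.7 and 57.5 in HSD libraries 1 to 5. In the brain it ranged from 32.8 to 43.1 on normal food and from 33.9 to 41.6 on high sugar. The fat body groups did not overlap and the brain groups did. The interaction was 0.55 ± 0.12 (SE, unadjusted limma p 0.000253), and 0.34 after rescaling.

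yps, which encodes a Y-box RNA-binding protein, stood at 85.7, 96.8, 131, 132 and 141 RPKM in the fat body on normal food and at 227, 254.6, 221, 240.0 and 161 on high sugar. Brain values were 87.1 to 106 over both diets. HSD library 5 was the lowest of its group and still lay above every ND library. The interaction of yps was 0.83 ± 0.19, or 1.15 ± 0.19 in libraries 1 to 3 alone and 0.33 ± 0.33 in 4 and 5 alone.

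RpL23A, a protein of the large ribosomal subunit, stood at 2824, 2827, 2657, 2840.4 and 3137 RPKM in fat body ND libraries and at 4235, 4555, 3812, 3891 and 3742 in HSD libraries, and in the brain at 637 to 852 and 639 to 809. The interaction was 0.53 ± 0.14 (unadjusted limma p 0.00102) and 0.32 after rescaling. pix, the fly relative of the ribosome recycling factor ABCE1, stood at 163, 161, 179, 162 and 214 RPKM and 301, 295, 260.0, 286 and 229 in the fat body, and at 60 to 89.9 in the brain. Its interaction was 0.70 ± 0.18. For both genes the fat body groups were separate and the brain groups overlapped.

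CG8801 (Non1), a nucleolar GTPase of large subunit assembly, stood at 502, 437, 504, 538 and 674 RPKM in fat body ND libraries and at 1112, 1045, 955, 829 and 727 in HSD libraries. The groups were separate, but HSD libraries 4 and 5 lay nearest to the ND group. Its interaction of 0.85 ± 0.21 was 1.42 ± 0.12 in the first 3 libraries of each group and 0.0099 ± 0.33 in the others. CG7686 (LTV1), named for a yeast factor of small subunit assembly, had the same arrangement, at 108, 88.5, 105, 108 and 120.4 RPKM and 206, 213, 196, 157 and 128. Its interaction was 0.74 ± 0.20, or 1.19 ± 0.12 and 0.06 ± 0.28 in those same subsets.

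The NAD kinase gene CG6145 (Nadk1a) had fat body means of 56.2 ± 6.83 RPKM (SD, n = 5) on normal food and 90.8 ± 19.2 on high sugar, brain values of 11.1 to 13.5, and an interaction of 0.68 ± 0.18. CG12204 had fat body means of 6.25 ± 2.68 and 13.6 ± 2.98 RPKM and an interaction of 1.01 ± 0.27, and its fat body groups overlapped. CG14868 was a brain gene, with 34.4 to 42.3 RPKM there, whose fat body values were 0.0974 to 0.727 on normal food and 1.09 to 1.63 on high sugar. Its interaction was 0.70 ± 0.16. The small nucleolar RNA snoRNA:Me28S-U2134a, which lies within the ribosomal protein gene RpL13A, stood at 2, 1.73, 2.54, 0 and 1.32 RPKM in fat body ND libraries and at 9.18, 9.95, 8.05, 32.3 and 6.26 in HSD libraries. The lowest value was in ND library 4 and the highest in HSD library 4, both among the libraries with many genes at 0. The interaction was 2.43 ± 0.57, or 1.65 ± 0.42 without fat body ND 4, ND 5 and HSD 4. Reads of the host gene cannot be told apart from those of the small nucleolar RNA. The non-coding RNA alphagamma-element:CR32865 had 0.132 to 2.81 RPKM in fat body ND libraries and 2.83 to 16.1 in HSD libraries, and an interaction of 1.99 ± 0.51.

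**Figure D2:**
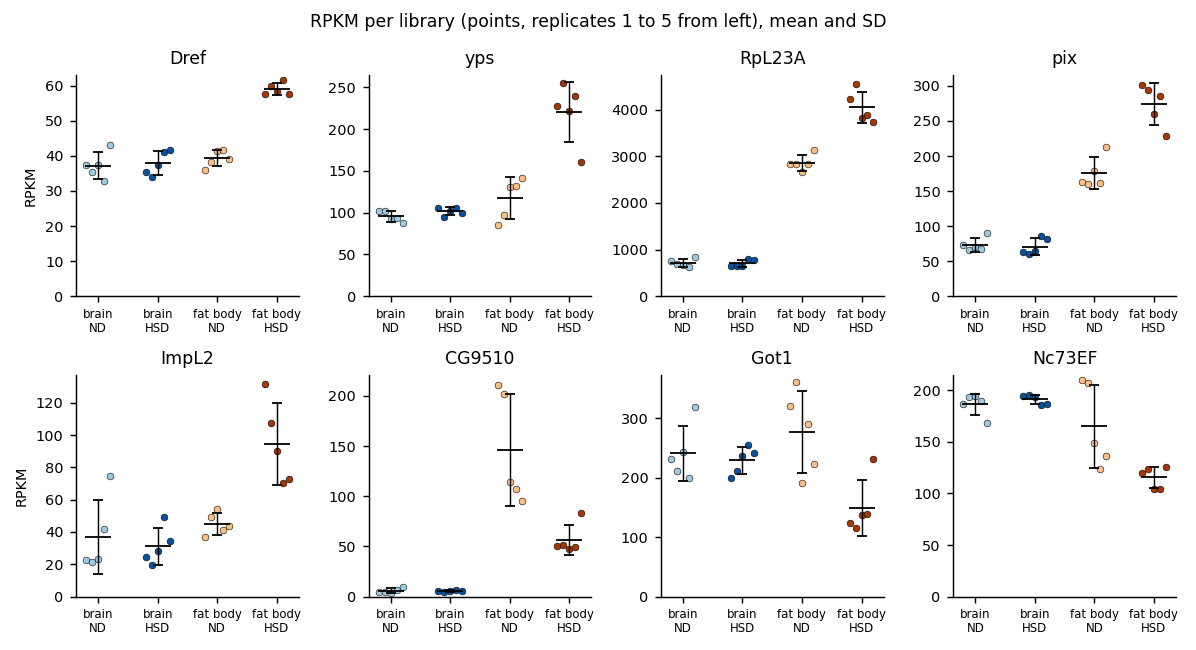
RPKM in each of the 20 libraries for 8 genes, with replicates 1 to 5 from left to right in each group and bars at the mean ± SD (n = 5). Brain values of Dref, yps, RpL23A, pix, Got1 and Nc73EF overlap between diets, while in the fat body the HSD points of Dref, yps, RpL23A, pix and ImpL2 lie above and those of CG9510 below every ND point.

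Below the brain, the genes with the smallest p included the following. CG9510, annotated as an argininosuccinate lyase (Argl), stood in the fat body at 211, 202, 114, 108 and 94.9 RPKM on normal food and at 50.1, 51.5, 47.4, 48.9 and 82.9 on high sugar, and in the brain at 3.92 to 9.96. The fat body groups were separate. The interaction was -1.29 ± 0.34 (limma adjusted p 0.772), or -1.91 ± 0.28 in libraries 1 to 3 alone and -0.37 ± 0.47 in 4 and 5 alone. CG9515 holds identical values in all libraries and overlaps it, so the pair counts as one measurement.

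Got1, an aspartate aminotransferase, stood at 321, 360.5, 191, 291 and 222 RPKM in fat body ND libraries and 124, 115, 138, 139 and 232 in HSD libraries, with 199.6 to 318 in the brain. HSD library 5 lay above ND libraries 3 and 5, so the groups overlapped. The interaction of Got1 was -0.83 ± 0.27. CG1640, an alanine aminotransferase, had fat body means of 160.1 ± 15.9 RPKM (SD, n = 5) and 112 ± 23.7, and an interaction of -0.49 ± 0.16. Nc73EF (Ogdh), the oxoglutarate dehydrogenase of the citrate cycle, stood at 209.8, 207, 149, 124 and 136 RPKM and 120.3, 123, 104, 104 and 126 in the fat body. ND libraries 1 and 2 were the highest, and ND library 4 lay within the range of the HSD libraries. Its interaction was -0.52 ± 0.18, and the fat body difference alone did not pass (limma adjusted p 0.0683). Of the 34 respiratory chain and citrate cycle genes tested, which include Nc73EF, 29 lay above 0, against 75.1% of all genes, and the median was 0.089. In this list 2 were listed above (5.88%, near the 5.77% of all genes) and 1 below (2.94%, against 0.679%). After rescaling 5 lay above 0 (50.6% of all genes) and the median was -0.125. Then 0 were listed above (1.28% of all genes) and 1 below (1.41% of all genes).

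CG8369 was abundant in the brain, at 1570.2 to 2908 RPKM, and in the fat body it stood at 94.7 to 145 on normal food and 42.4 to 77.3 on high sugar, with an interaction of -0.95 ± 0.25. Plc21C, a phospholipase C, stood at 18.3 to 24.4 RPKM and 13.9 to 16.3 in the fat body, with an interaction of -0.48 ± 0.16 and a fat body adjusted p of 0.0683 in limma. LRP1, a receptor of the low-density lipoprotein receptor family, had 12.4 to 21.2 and 4.48 to 11.8 RPKM and an interaction of -0.91 ± 0.28. For these 3 genes the fat body groups were separate, with high sugar below. CG33082 (Rpp21, a subunit of the tRNA-processing enzyme RNase P in humans) and CG13707 were also separate, with interactions of -0.90 ± 0.27 and -1.75 ± 0.50. Of CG13707, ND library 4 stood at 29.8 RPKM and the other fat body ND libraries at 5.42 to 8.70. CG1979 and CG15553 were nearly confined to the fat body, where their means went from 19.1 ± 6.39 to 5.16 ± 2.63 RPKM and from 12.3 ± 4.51 to 4.89 ± 1.72, and their interactions were -1.55 ± 0.44 and -1.10 ± 0.31.

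Genes of the protein synthesis machinery lay mostly above the brain. Of 82 cytosolic ribosomal protein genes tested, 81 had an interaction above 0, against 75.1% of all genes, and 45 (54.9%) had an unadjusted p under 0.05 above the brain, against 5.77% of all genes. After rescaling within each tissue, 0 of the 82 were listed, against 1.28% of all genes. None passed the adjusted threshold in either case. The median diet difference was 0.42 in the fat body and -0.053 in the brain, and the median interaction was 0.48, which was 0.265 after rescaling with 80 members above 0. These genes share libraries and move together, so the 45 as deposited are not separate observations.

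The summed RPKM of the ribosomal protein genes was 137306, 136437, 126797, 146783 and 170392 in fat body ND libraries 1 to 5 and 196613, 207468, 178627, 197951 and 175850.0 in HSD libraries. The diets did not overlap. In the brain the sums were 35168 to 39430 in ND libraries 1 to 4, 65599 in ND library 5, and 33750 to 48836 in HSD libraries. Brain ND library 5 therefore stood above all other brain libraries, and without it the median interaction was 0.32. Libraries 1 to 3 alone gave 0.59, and 4 and 5 alone gave 0.30. RpL13 had an interaction of 0.53 ± 0.18, from fat body means of 1841 ± 134 and 2586 ± 197 RPKM (SD, n = 5), and sta, which encodes a small subunit protein, had 0.61 ± 0.21.

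The 29 ribosome biogenesis and polymerase I genes tested all had an interaction above 0, as deposited and after rescaling, and 5 were listed above (17.2%, against 5.77% of all genes), or 3 after rescaling. Their median was 0.53 (0.35 rescaled), with 0.58 in the fat body and 0.040 in the brain, and libraries 1 to 3 alone gave 0.815 against 0.11 from 4 and 5 alone. Of 21 translation factor genes 7 were listed above (33.3%) and 2 after rescaling, with a median of 0.355 (0.14 rescaled). The initiation factor gene eIF3-S9 (eIF3b) had fat body means of 218 ± 31.1 and 314 ± 49.9 RPKM and an interaction of 0.52 ± 0.17, and the helicase gene eIF-4a had 0.51 ± 0.18. Of 72 mitochondrial ribosomal protein genes, 7 were listed above (9.72%) and 2 after rescaling, and the median was 0.30, but 0.097 rescaled and -0.00038 within libraries 4 and 5. mRpL45 stood at 17.3 to 25.2 RPKM and 23.7 to 36.3 in the fat body on each diet, with an interaction of 0.53 ± 0.17, and mRpS14 had 0.79 ± 0.29.

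All 25 genes of the proteasome, which degrades proteins, had an interaction above 0, also after rescaling, with a median of 0.37 (0.15 rescaled). Of them 4 were listed (16.0%, against 5.77% of all genes), and 0 after rescaling. Prosbeta2, a catalytic core subunit, had an interaction of 0.48 ± 0.21. Of 21 endoplasmic reticulum chaperone genes 20 lay above 0 (15 after rescaling) and 0 were listed, with a median of 0.25 (0.061 rescaled). In the heat shock list 8 of 15 genes lay above 0, a smaller share than the 75.1% of all genes, and the median was 0.14 (-0.059 rescaled, -0.020 without brain ND library 5). It had 2 listed above (13.3%), also after rescaling. Its constitutive member Hsc70-4 stood at 1117, 1147, 1487, 1365 and 1711 RPKM in fat body ND libraries and 2664, 2404, 2179.7, 1838 and 1655 in HSD libraries, and in the brain at 454 to 665 and 433 to 566. HSD library 5 lay below ND library 5, the only overlap between the groups, and the interaction was 0.78 ± 0.21. The co-chaperone gene Droj2 had 0.55 ± 0.26 and Hsp83 had 0.90 ± 0.45, but -0.092 in libraries 4 and 5 alone. The 17 proton pump (V-ATPase) genes had a median of 0.24 (0.025 rescaled) with 1 listed above (5.88%, near the share of all genes) and 0 after rescaling.

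**Figure D3:**
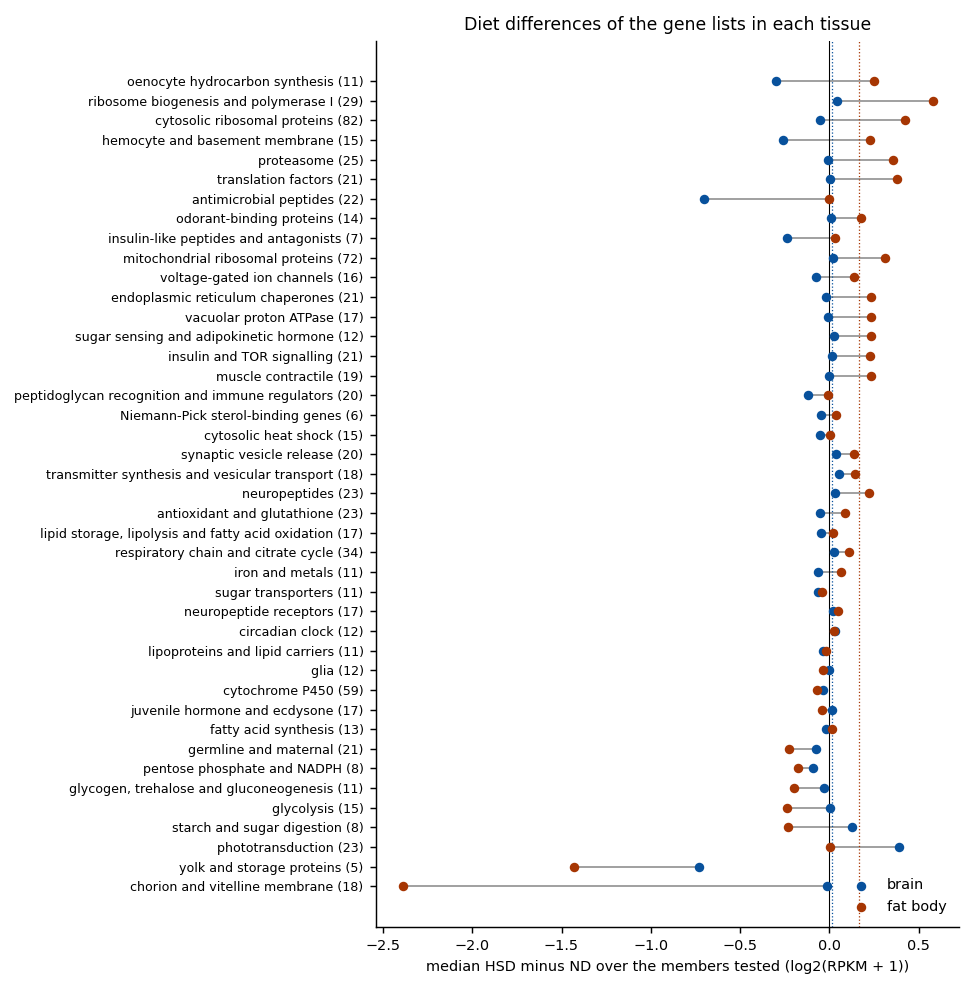
Median HSD minus ND difference (log2(RPKM + 1)) of each gene list with at least 5 genes tested, in the brain (blue) and the fat body (brown), ordered by the median interaction, with the number of genes tested in brackets and the medians of all 9280 genes as dotted lines. Ribosomal protein, ribosome biogenesis, translation factor and proteasome genes have fat body medians of 0.36 to 0.58 and brain medians between -0.053 and 0.040, and the eggshell list lies lowest with a fat body median of -2.39.

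Most glycolysis genes lay below the brain. Of 15 glycolysis genes 2 had an interaction above 0, against 75.1% of all genes. In the list 2 were listed below the brain (13.3%, against 0.679% of all genes) and 0 above, and the median was -0.24. After rescaling the median was -0.46, with 1 member above 0 (50.6% of all genes) and 4 listed below (1.41% of all genes). The median diet difference was 0.0012 in the brain and -0.24 in the fat body. PyK, pyruvate kinase, stood at 536, 647, 544, 488 and 484 RPKM in fat body ND libraries and 434, 383, 415, 405 and 503 in HSD libraries, against 422 to 553 and 442 to 522 in the brain. HSD library 5 was the only one of its group within the ND range. The interaction of PyK was -0.36 ± 0.14. Pgi, phosphoglucose isomerase, had fat body means of 350.4 ± 44.5 and 248 ± 86.8 RPKM (SD, n = 5) and an interaction of -0.52 ± 0.24. The median of the glycolysis list was -0.36 in libraries 1 to 3 alone and -0.043 in 4 and 5 alone.

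The 11 glycogen, trehalose and gluconeogenesis genes had a median of -0.22 (-0.44 rescaled) with 0 listed. UGP, which makes UDP-glucose for glycogen and trehalose, stood at 538 to 818 RPKM on normal food and 376 to 767 on high sugar, with an interaction of -0.51 ± 0.28. Pepck, the gluconeogenic carboxykinase, had -0.79 ± 0.97. The 8 pentose phosphate and NADPH genes had a median of -0.060 (-0.28 rescaled), and malic enzyme, Men, had -0.58 ± 0.31, but 0.02 in libraries 4 and 5 alone. Of 11 sugar transporter genes 1 was listed (2 below after rescaling), CG6484, with fat body means of 66.6 ± 17.4 and 39.1 ± 10.4 RPKM, brain values of 0.474 to 1.16, and an interaction of -0.72 ± 0.26. The list's median was 0.027 and turned to -0.185 after rescaling. For the 8 genes of starch digestion the median was -0.27 with 0 listed, and the sign turned with single libraries: it was 0.225 without brain HSD library 4, 0.036 without fat body ND library 5 and -1.04 without fat body HSD library 5. It was 0.047 in libraries 1 to 3 alone. The summed RPKM of 5 gut markers reached 359 in brain HSD library 4, against a median of 1.57 in brain HSD libraries and at most 11.7 in ND libraries, and in HSD libraries Amy-p reached 209 RPKM and Amy-d 98.9. Their part in the list's value was not tested.

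Of 7 insulin-like peptide and antagonist genes 6 lay above 0, and of 12 sugar sensing genes 10, against 75.1% of all genes. ImpL2, a secreted protein that binds insulin-like peptides, stood at 36.7, 49.3, 53.9, 41 and 43.8 RPKM in fat body ND libraries and 132, 108, 90.3, 70.4 and 73 in HSD libraries. In the brain it stood at 22.7, 21.7, 23.1, 42.1 and 74.7 and 24.5, 19.5, 28, 49.3 and 34.4. The fat body groups were separate, and in the brain ND libraries 4 and 5 stood above ND 1 to 3. The interaction was 1.16 ± 0.42 (unadjusted limma p 0.0132), 1.14 in libraries 1 to 3 alone, 1.18 in 4 and 5 alone, and 0.86 without brain ND library 5.

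daw, an activin-like ligand that the fat body secretes, stood at 20, 13.2, 25.3, 40.5 and 37.8 RPKM and 56.3, 46.6, 49, 64 and 47.1 in the fat body, and its interaction of 0.89 ± 0.39 was 0.17 within libraries 4 and 5. bigmax, the fly Mlx and partner of Mondo, had fat body values of 36.5 to 53.9 and 54.5 to 70.8 RPKM and an interaction of 0.43 ± 0.17. Both were separate by diet in the fat body. The sugar-responsive factor gene sug had 0.54 ± 0.45, the adipokinetic hormone receptor gene GRHR (AkhR) had 0.56 ± 0.50, with at most 3.51 RPKM of sug and 4.10 of GRHR in a brain library. tobi, a glucosidase gene under hormonal control, had -1.05 ± 1.17, but 1.16 in libraries 4 and 5 alone. Of the 12 sugar sensing genes 2 were listed above (16.7%, against 5.77% of all genes), and 0 after rescaling with 8 above 0. The median was 0.24 (0.030 rescaled).

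The insulin and TOR list of 21 genes had a median of 0.20 with 2 listed above (9.52%, against 5.77% of all genes). After rescaling the median was -0.0060, 10 of 21 lay above 0, and 0 were listed above and 1 below. S6k, the ribosomal kinase downstream of TOR, stood at 43.5, 39.6, 43.5, 30 and 39 RPKM and 71.4, 61.9, 55.9, 49.1 and 39.5 in the fat body, with an interaction of 0.47 ± 0.19. chico, the insulin receptor substrate, had 0.43 ± 0.20. The receptor gene InR had 0.25 ± 0.37 and the translational repressor gene Thor had 0.27 ± 0.64, both smaller than their SE. Ilp6, the insulin-like peptide made by the fat body, had 0.60 ± 0.38, with -0.15 in libraries 4 and 5 alone. Ilp2, Ilp3 and Ilp5, made by the insulin-producing cells, stood at 309 to 529, 26.7 to 69 and 66.4 to 190.4 RPKM in brain ND libraries and at 276 to 341, 33.2 to 39.7 and 53.2 to 83.7 in HSD libraries. In the fat body Ilp2 was listed at 0 in every library, Ilp3 reached 0.228 RPKM and Ilp5 0.126. Their interactions were 0.26 ± 0.17, 0.30 ± 0.25 and 0.52 ± 0.29, and brain ND library 5 was the highest brain library for each.

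Lipid genes were mixed in direction as deposited and lay mostly below 0 after rescaling. As deposited, 6 of 13 fatty acid synthesis and 11 of 17 lipid storage and lipolysis genes lay above 0, against 75.1% of all genes. So did 6 of 11 lipoprotein and lipid carrier genes and 4 of 6 Niemann-Pick genes. After rescaling the counts were 1, 4, 2 and 3 in that order, against 50.6% of all genes. Of 13 fatty acid synthesis genes 1 was listed, AcCoAS, the acetyl-CoA synthetase, with 706, 703, 509, 361 and 343 RPKM in fat body ND libraries, 342, 362, 354, 275 and 364 in HSD libraries and an interaction of -0.53 ± 0.23. ND libraries 4 and 5 lay within the HSD range and ND 1 to 3 above it. The list's median was -0.045 (-0.26 rescaled). In the lipid storage and lipolysis list of 17 genes (median 0.105, -0.11 rescaled) 1 was listed above (5.88%, near the 5.77% of all genes), and 0 after rescaling. The listed gene was the lipase gene Lip4, with 0.51 ± 0.23, and the triglyceride lipase gene bmm had -0.36 ± 0.23. The lipophorin receptor gene LpR1 had fat body means of 30.6 ± 7.01 and 44.2 ± 12.1 RPKM and an interaction of 0.48 ± 0.22 (-0.12 within libraries 4 and 5). The lipocalin gene Karl had 1.17 ± 0.55, with differences of 0.72 in the fat body and -0.45 in the brain. The lipid-binding gene Npc2h stood apart by diet in the fat body (307 to 388 and 468 to 575 RPKM), its interaction was 0.37 ± 0.86, and its brain values ranged from 0.451 to 14.7 RPKM.

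Genes of the oenocytes, cells that make cuticular hydrocarbons and lie against the fat body, had a median interaction of 0.66 over 11 genes (0.43 rescaled). Of them 3 were listed above (27.3%, against 5.77% of all genes), and 0 after rescaling (against 1.28%). The fatty acid elongase gene eloF stood at 278, 277, 208, 351 and 571 RPKM and 642, 456, 397, 619.6 and 413 in the fat body, and in the brain at 0.148, 0.216, 0.0903, 5.44 and 0.149 on normal food and 0 to 0.234 on high sugar. Brain ND library 4 alone held it above 1 RPKM. Cyp4g1, the hydrocarbon-forming P450, had the same arrangement, at 0.162, 0.194, 0.16, 138 and 0.232 RPKM in brain ND libraries, and fat body means of 8805 ± 1454 and 14504 ± 4987 RPKM. Without brain ND library 4 the interaction of Cyp4g1 moved from 2.11 to 0.74, that of eloF from 1.25 to 0.75 and the list's median from 0.66 to 0.225, while the elongase-family gene CG18609 moved from 0.82 to 0.57. Cyp4g1 and eloF are among the 4 oenocyte markers, so the marker sum is not a separate measurement. It was 9860 to 16208 RPKM in fat body ND libraries and 13804 to 26986 in HSD libraries, and its part in these values was not tested.

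Yolk and storage protein genes had negative median differences in both tissues, -1.43 in the fat body and -0.73 in the brain over 5 genes, with 0 listed. Lsp2, a storage protein of the fat body, stood at 230.3, 406, 118, 13.1 and 35.9 RPKM in fat body ND libraries and 2.8, 3.16, 1.28, 0.078 and 20.9 in HSD libraries. In the brain it stood at 2.38, 4.26, 1.58, 116 and 463 in ND libraries and 5.28, 1.35, 1.46, 6.43 and 8.83 in HSD libraries. Brain ND libraries 4 and 5 held nearly all of the brain's Lsp2, and without ND library 5 the interaction was -3.72. The differences were -4.54 in the fat body and -1.98 in the brain, and the interaction was -2.56 ± 1.79, -5.97 in libraries 1 to 3 alone and 2.54 in 4 and 5 alone.

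Yp1, Yp2 and Yp3, the yolk protein genes, had interactions of -0.43 ± 1.18, -0.50 ± 1.15 and -0.39 ± 1.14, all smaller than their SE. They made up 10.3% to 25.8% of all RPKM in fat body ND libraries and 6.01% to 13.5% in HSD libraries, against at most 2.00% in a brain library. fit, a female-enriched gene that responds to feeding, had differences of -1.77 and -0.97 in fat body and brain and an interaction of -0.79 ± 1.41. The odorant-binding protein gene Obp99a was separate by diet in the fat body, at 1470.2, 1370.0, 839, 451 and 493 and 226, 186, 172, 188 and 363 RPKM. It stood at 0.802 to 32.8 RPKM in the brain, and its interaction of -1.35 ± 0.94 was -2.54 in libraries 1 to 3 alone and 0.44 in 4 and 5 alone. The 7 fat body marker genes include Lsp2, Yp1 and Yp2, so their sum repeats those values and is not a separate measurement. In the brain that sum was highest in ND library 5, at 7022 RPKM, against medians of 462 (ND) and 372 (HSD). Its part in these interactions was not tested.

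Eggshell genes, which are made in ovarian follicles, had the lowest median interaction of any list, -2.38 over 18 chorion and vitelline membrane genes (-2.54 rescaled). Of them 2 were listed below (11.1%, against 0.679% of all genes), and 2 after rescaling (against 1.41%). An interaction below 0 was found for 17 of the 18, against 2314 of all 9280 genes. Their summed RPKM in the fat body was 7617, 7060, 118, 12929 and 179 in ND libraries 1 to 5 and 28.0, 1022, 86.5, 98.3 and 1582 in HSD libraries. The diets overlapped, with ND libraries 3 and 5 inside the HSD range. Cp15 stood at 22, 49, 50.2, 295 and 49.7 and 3.28, 14.3, 10.4, 2.27 and 59.1 RPKM, with an interaction of -2.53 ± 0.90. Cp19 had -4.80 ± 2.15 and Cp18 had -3.62 ± 1.77. The brain libraries held the whole list at 24.5 to 35.1 RPKM. The 9 ovary and eggshell markers include Cp15, Cp18 and Cp19, so their sum is not separate from this list. They summed to 209 to 10179 RPKM in fat body ND libraries and 23.5 to 1306 in HSD libraries. The member yl was not lower by median, at 81.1 (ND) and 94.6 (HSD) RPKM. The 6 germline markers summed to medians of 138 and 210. For yl and for that sum, HSD libraries reached both below and above all ND libraries. The 21 germline and maternal genes tested had a median interaction of -0.055 (-0.28 rescaled) with 0 listed. The part of ovarian material in the other fat body differences was not tested.

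Immune and stress genes differed widely between libraries of one group. The 22 antimicrobial peptide genes had a median interaction of 0.33 with 0 listed, but -1.15 in libraries 1 to 3 alone and 3.10 in 4 and 5 alone. It was 0.074 without brain ND library 5, -0.029 without fat body HSD library 5 and 1.06 without fat body ND library 2. Their summed RPKM in the fat body was 17407 in ND library 2 and 1823 to 4939 in the other ND libraries, and 11886 in HSD library 5 and 1544 to 3497 in the other HSD libraries. Drs had differences of -1.08 and -1.10 in fat body and brain and an interaction of 0.02 ± 1.92. CecA2 and AttC had 1.97 ± 1.10 and 1.75 ± 1.51. Of 20 recognition and immune regulator genes 1 was listed above (5.0%, near the 5.77% of all genes), and the median was 0.16 (-0.048 rescaled). The listed gene was the receptor gene PGRP-LE, with 0.51 ± 0.20. The 4 Turandot stress peptide genes had a median of -0.98, and -0.31 without brain HSD library 4. TotM stood at 221 to 295 and 55.7 to 295 RPKM in the fat body, with an interaction of -1.39 ± 0.97, and TotC had -1.37 ± 1.34.

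The transferrin gene Tsf1 stood at 2221, 3794, 916, 1377 and 593 RPKM in fat body ND libraries and 336, 286, 708, 303 and 764 in HSD libraries, and at 829.7 to 1596 in the brain. ND library 5 lay within the HSD range, and the interaction was -1.55 ± 0.55. Of 59 cytochrome P450 genes 3 were listed above (5.08%, near the 5.77% of all genes) and 2 below, and after rescaling 0 above and 3 below. The median was -0.029 (-0.25 rescaled). Cyp28d1, found in both tissues, had fat body means of 299 ± 80.3 and 174 ± 30.2 RPKM and an interaction of -0.70 ± 0.25. Cyp6a21 had -1.20 ± 0.37 and Cyp313b1 had 0.60 ± 0.19, with at most 0.443 RPKM of either in a brain library. The nuclear receptor gene ERR had 0.56 ± 0.22, and the basement membrane gene BM-40-SPARC (SPARC) had 0.53 ± 0.21. In the juvenile hormone and ecdysone list 1 of 17 was listed above (5.88%), near the share of all genes. The hemocyte and basement membrane list had 1 of 15 (6.67%), and after rescaling both lists had 0 above.

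Of 23 neuropeptide genes 2 were listed above (8.70%, against 5.77% of all genes) and 1 after rescaling, with a median of 0.12. In the transmitter list 1 of 18 was listed above (5.56%) and in the synaptic vesicle list 1 of 20 (5.0%), both near the share of all genes. Leucokinin, a peptide of fluid balance and feeding, stood at 3.95, 2.58, 2.49, 0 and 2.19 RPKM in the fat body on normal food and 3.57, 11.5, 2.11, 4.27 and 5.62 on high sugar, and in the brain at 16.5 to 35.3 and 16.8 to 19. Its interaction was 1.29 ± 0.52, and its receptor gene Lkr, which was at most 0.185 RPKM in the fat body, had 0.13 ± 0.15. capa stood at 9.01 and 7.003 RPKM in fat body HSD libraries 2 and 5 and at 0.261 or lower in the other fat body libraries, with an interaction of 1.34 ± 0.72. The monoamine transporter gene Vmat had 0.55 ± 0.22 from fat body values of 0.232 to 0.426 and 0.493 to 1.68 RPKM, and the vesicle protein gene Syt4 had 0.39 ± 0.17. Akh, which is made in the corpora cardiaca beside the brain, stood at 2.49, 17.7, 0.419, 205 and 338 RPKM in brain ND libraries and 15.8, 0.116, 22.5, 179 and 96.3 in HSD libraries, and had 0.047 ± 1.86. The tachykinin receptor gene Takr99D had -0.19 ± 0.52.

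The 23 phototransduction genes had a median interaction of -0.33 with 0 listed, from a brain median of 0.39. Their summed RPKM in the brain was 3162 in HSD library 4 and 388 to 635 in the other 9 libraries. Without that library the median was -0.0031. The 5 photoreceptor markers summed to 75.6 to 190.2 RPKM in brain ND libraries and 69.4 to 2104 in brain HSD libraries, highest in HSD library 4, and Arr2 was at 0 in every fat body library.

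Among the genes with differences in both tissues, some owed their brain value to 1 library. Of the 8 genes with opposite signs and the largest smaller difference, CG16826 stood at 0.0276, 0.0801, 0, 231 and 0.0924 RPKM in brain HSD libraries and 0.683 to 3836 in the fat body, with differences of -1.23 in the fat body and 1.52 in the brain. Its interaction of -2.75 ± 3.09 was -1.19 without brain HSD library 4. Ag5r had the same library high, at 68.1 RPKM, and an interaction of -1.75 ± 1.78 that was -0.66 without it. The others were Cyp4g1, CG15347, Amy-p, snmRNA:400 and the antimicrobial peptide genes AttD and Dpt. The 8 with the same sign were Lsp2, Yp2, fit, snmRNA:359, Drs, CecC, CecA1 and PGRP-SB1, genes of storage, yolk, feeding and immunity among them.

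**Figure D4:**
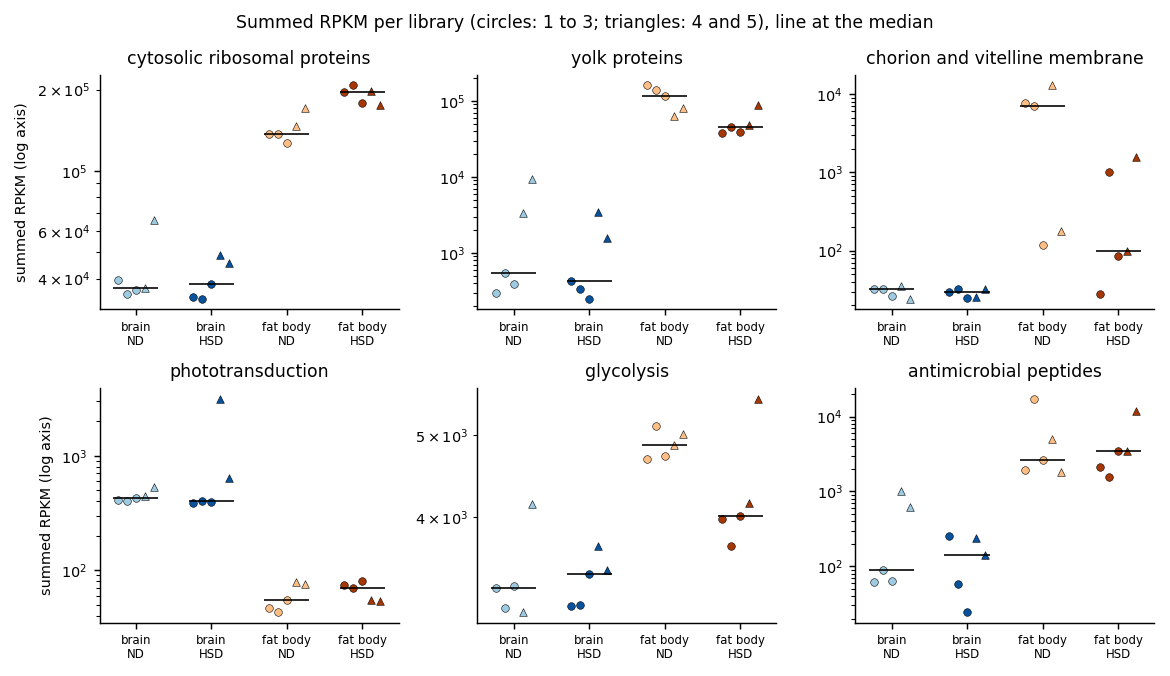
Summed RPKM of 6 gene groups in each library on log axes, with circles for libraries 1 to 3, triangles for 4 and 5 and a line at the group's median. Ribosomal protein sums in the fat body do not overlap between diets (126797 to 170392 and 175850.0 to 207468), brain HSD library 4 stands apart in phototransduction genes at 3162, and eggshell sums in the fat body run from 28.0 to 12929.

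**Figure D5:**
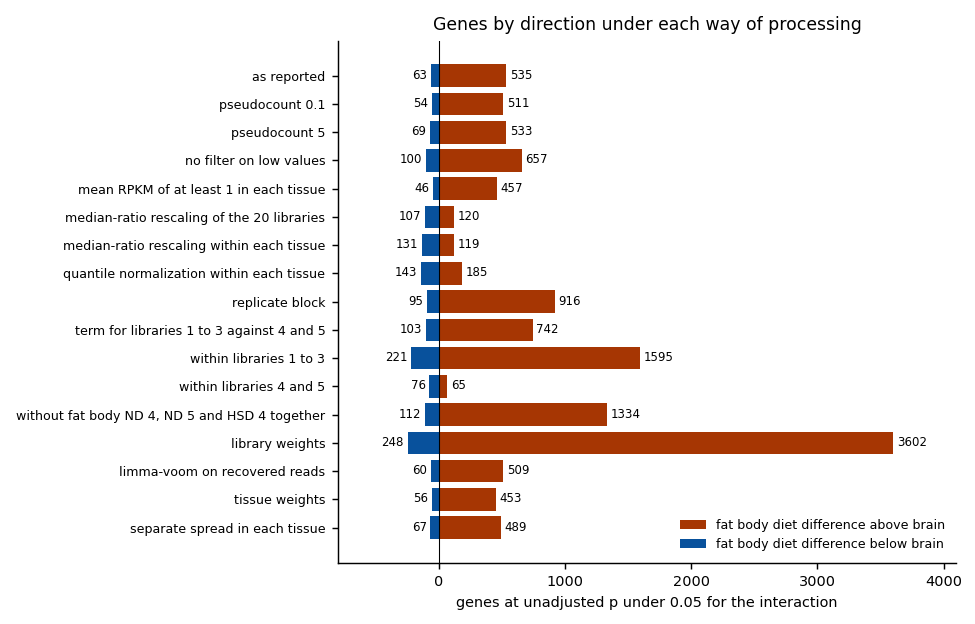
Number of genes with an unadjusted interaction p under 0.05 under each way of processing, with the fat body difference above the brain's to the right and below it to the left. The right-hand bars are longer except after median-ratio rescaling within each tissue (119 and 131) and within libraries 4 and 5 (65 and 76).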

How the data were processed

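The values are RPKM per gene of uniquely mapped reads, as deposited by the authors and per the labels; poly(A) libraries were read on an Illumina HiSeq X instrument, and TopHat and dm3 are named, without versions, in the submitters' processing notes. Reads were recovered as whole multiples (99.96% of values above 0 within 0.01 read) to give depth per library; intervals and floors cover counting error only, since PCR copies were not told apart. Of 15080 entries per table, 1107 that shared 188 symbols and 1 symbol not in every table were left out. 0 pairs of tables were identical. No coordinates are given, because the reference is of another assembly and was used for names (9123 of 9280 matched).

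limma 3.58.1 (R 4.3.3) with trend was fitted to log2(RPKM + 1) of all 20 libraries, with 1 mean per group, keeping every gene whose mean over the libraries reached 1 RPKM. All p-values are two-sided, with adjustment by Benjamini-Hochberg at 0.05. Values are differences of log2(RPKM + 1), which understates the change of low genes. "Listed" means an unadjusted p under 0.05. Rescaling is by median ratio within each tissue. The fit was checked on simulated data.

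Named genes are the 12 per direction with the largest interaction past the threshold, filled up by the smallest p where a group mean reached 5 RPKM; up to 3 per list by p; the 8 of opposite and the 8 of the same sign with the largest smaller difference; and 23 fixed genes. The text gives values for some of them. The comparison, the 43 lists and the genes were chosen with earlier results of these data known. Same-numbered libraries deviated together between diets within each tissue (correlations 0.45, 0.58, 0.55, 0.3 and 0.66 in the brain, 0.28, 0.15, 0.65, 0.24 and 0.13 in the fat body), so they were paired in the fit with a block; no label gives the source of the pairing. Between tissues the correlations lay between -0.22 and 0.15, so tissues were not paired.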

Additional observations from a re-analysis of the deposited data

Results flagged for a closer look

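In 9 of 36 tests of summed levels or counts per group, 1 library lay further from the rest of its group than Dixon's 95% limit allows. Chance alone gives about 1 in 20. Brain ND library 5 was high in 3 of them: ribosomal protein genes summed to 65598.57 RPKM (others 35168 to 39430), translation factor genes to 4463.7 (others 3105 to 3328) and glycolysis genes to 4150.432 (others 3089 to 3312). Fat body HSD library 5 was high in 3: yolk protein genes summed to 88451.04 RPKM (others 37899 to 47617), glycolysis genes to 5528.959 (others 3702 to 4156) and antimicrobial peptide genes to 11886.48 (others 1544 to 3497). Fat body ND library 2 held 17407.23 RPKM of antimicrobial peptide genes (others 1823 to 4939). Brain HSD library 4 held 3161.611 RPKM of phototransduction genes (others 388 to 635). Fat body HSD library 4 had 5445 genes at 0 (others 2836 to 3324). Among the named genes, 56 of 364 gene and group pairs passed the same limit.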

How the results depend on the processing

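The count of 0 genes past an adjusted p of 0.05 for the interaction was also 0 with either other pseudocount, filter or scaling, with the replicate block, a term for libraries 1 to 3 against 4 and 5, limma-voom, tissue weights, a separate spread, within libraries 4 and 5 and without any 1 library. It was 277 within libraries 1 to 3, 23 without fat body ND 4, ND 5 and HSD 4, and 2104 with library weights. In the brain alone it was 0 in every setting. In the fat body alone the 45 genes became 75 with a pseudocount of 5, 3 with median-ratio rescaling of all libraries and 3 within tissues, 307 with the term for libraries 1 to 3 against 4 and 5, 1845 within libraries 1 to 3, 0 within libraries 4 and 5, 998 without the 3 fat body libraries, 3246 with library weights, 23 with limma-voom, 0 with tissue weights and 0 with a separate spread. With the replicate block, which pairs same-numbered libraries within a tissue, it was 0, while the 598 genes at an unadjusted interaction p under 0.05 became 1011. Leaving out 1 library gave 3 to 586 in the fat body: 3 without ND 1, ND 2 or HSD 2, 4 without HSD 1, 10 without HSD 3, 519 without ND 3, 460 without ND 5 and 586 without HSD 5, and 126 without brain ND 5; without any other brain library it was 25 to 29. The 598 became 227 and 250 with the median-ratio rescalings, 328 with quantile normalization, 1816 within libraries 1 to 3, 141 within libraries 4 and 5, 1446 without the 3 fat body libraries and 3850 with library weights. Without 1 library they were 389 (brain HSD 2) to 1019 (fat body HSD 5), with 981 and 918 without fat body ND 3 and ND 5.

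Of 1439 values of 91 named genes, 1309 kept their direction and side of the threshold, 96 passed it and 34, of 19 genes, turned. Within libraries 4 and 5 the interaction was -0.0924 for Hsp83, -0.151 for Ilp6, -0.25 for InR, 1.16 for tobi, 0.0203 for Men, -0.125 for LpR1, 0.436 for Obp99a, 2.54 for Lsp2, 0.794 for Yp1, 1.64 for Yp2, 1.27 for Yp3, 2.39 for fit and 1.43 for Takr99D. Within libraries 1 to 3 it was -0.623 for Akh, -1.11 for Drs, -0.568 for CecA2, -1.48 for AttC, 0.229 for CG16826 and 0.565 for Ag5r. With library weights it was -0.737 for Akh, -2.21 for Drs, -1.3 for CecA2, -1.82 for AttC, 2.11 for CG16826 and 1.15 for Ag5r. Without the 3 fat body libraries it was 0.0706 for CG16826 and 0.0957 for Ag5r. Quantile normalization gave 0.24 for Yp1, 0.404 for Yp3 and -0.181 for Drs, the median-ratio rescalings gave -0.18 and -0.179 for Drs, a pseudocount of 0.1 gave -0.0049 for Drs, and limma-voom gave 0.173 for Takr99D. Leaving out 1 library turned 25 of 1820 values, of 9 genes: InR ranged from -0.000452 to 0.487, Thor from -0.102 to 0.694, Akh from -1.06 to 1.05, Npc2h from -0.124 to 0.899, Yp1 from -1.16 to 0.172, Yp2 from -1.27 to 0.0229, Yp3 from -1.16 to 0.12, Drs from -1.06 to 1.08 and Takr99D from -0.561 to 0.104. Tissue weights and the separate spread were added after seeing the data. The causes were not tested. Depth limits genes of low RPKM most in fat body ND 4, the library with the fewest reads.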
